A study of Mus musculus with 8 samples.

Results

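Kinesins are motor proteins that move along microtubules or take them apart, and tubulins are the subunits of which microtubules are built. Their mRNAs were examined in fully grown mouse oocytes at the germinal vesicle (GV) stage, in which meiosis is paused and the cell lives on stored mRNA. All genes whose symbol begins with Kif and a number, or with Tuba, Tubb, Tubg, Tubd or Tube and a number, were taken, and 2 β-tubulin pseudogenes whose names end in -ps and a number were left out. This gave 60 of the 46078 genes in the count table, 41 of them kinesin rows and 19 tubulin rows. The kinesin rows also hold Kif4-ps and Kif22-ps (processed pseudogenes), Kif16bos (an RNA transcribed opposite to Kif16b) and Kif1bp, whose product binds kinesins and is not a motor. CNOT7 and CNOT8 are deadenylase subunits of the CCR4–NOT complex, which shortens the poly(A) tails of mRNAs. In the CNOT7&8 KO oocytes both floxed genes were deleted by Zp3-Cre, a recombinase driven by the promoter of a zona pellucida gene that is active in growing oocytes, so the rest of the ovary kept both genes and the oocytes lost them only during growth. Control oocytes came from Zp3-Cre mice, and the transgene was therefore present in both groups. Females had a C57BL/6J background, were 4 weeks old and had received pregnant mare serum gonadotropin (PMSG) before collection. Each group had 4 libraries of 100 oocytes each, so every library is a pool, and it is not stated how many animals gave the oocytes of a library or whether libraries came from separate collections. The p-values therefore measure the spread between libraries.

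Microtubules grow from dimers of α- and β-tubulin, γ-tubulin starts new microtubules, and δ- and ε-tubulin belong to centrioles. Mammals carry several genes for each α- and β-tubulin, called isotypes, whose products differ mainly in the acidic tail at the end of the protein. In the oocyte, spindle kinesins assemble the meiotic spindle and move chromosomes once meiosis resumes, and the mRNAs for many spindle proteins are stored at the GV stage. The mRNAs of α- and β-tubulin are also under autoregulation, in which TTC5 binds the first residues of a tubulin as it leaves the ribosome and, through SCAPER and CNOT11, brings CCR4–NOT to its mRNA.

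The first 18 coding bases of tubulins are shown because they encode the residues that TTC5 reads, with the first 4 codons in capitals (GENCODE vM21 transcripts on GRCm38, 5′ to 3′).
Tuba1a: ATGCGTGAGTGCatctcc
Tuba3b: ATGCGTGAGTGTatctct
Tuba4a: ATGCGCGAGTGCatttca
Tubb2a: ATGCGCGAGATCgtgcac
Tubb2b: ATGCGAGAGATCgtgcac
Tubb4b: ATGAGGGAGATCgtgcac
Tubg1: ATGCCGAGAGAAatcatc
Tube1: ATGACCCAGTCGgtggtc
After the start codon, all 7 α-tubulin genes had codons for arginine, glutamate and cysteine and all 8 β-tubulin genes had codons for arginine, glutamate and isoleucine, whereas the γ-, δ- and ε-tubulin genes had neither. In the edgeR comparison below, the α-tubulin start was thus shared by mRNAs that were higher in KO oocytes, lower or past no threshold, and the β-tubulin start by mRNAs that were lower or past no threshold. Tuba3a and Tuba3b had the same start and also the same last 30 coding bases, and they are near-identical along the whole coding sequence (96.97% of aligned bases). Between the isotypes listed next, the coding ends, which encode the last part of the acidic tail, differed more. The last 30 coding bases are shown with the stop codon in capitals.
Tuba1c: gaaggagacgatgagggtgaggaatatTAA
Tuba3b: gcagaggcagaagaaggggaggagtacTGA
Tuba4a: tatgaggacgaggatgagggagaagagTAG
Tubb2a: gaggaggaggagggtgaagatgaggctTGA
Tubb3: gaggaatcggaagcccaggggcccaagTGA
Tubb4b: gaggaggaggctgaggaggaggtggctTAG
Acidic codons were counted over the last 10 codons before the stop, a stretch slightly longer than the one shown. Tubb3 had 4 for aspartate or glutamate, Tuba4a and Tubb2a had 7 and Tubb6 had 8. Codons before this stretch were not counted, so these numbers do not rank whole tails.

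Control libraries held 14943671 to 44092144 counts and KO libraries 8639444 to 26784110. Values are given in CPM, a gene's read counts brought to a common library size, with library totals scaled by edgeR's TMM method, on which 3 counts, taken as the smallest detectable signal, made between 0.0802 and 0.326 CPM. Such floors cover counting error only, since PCR copies are not independent molecules. The test covered the 19241 genes that reached 0.2 CPM in at least 2 libraries, and a DEG is a gene whose change was 2-fold or more with a false discovery rate no higher than 0.05 by edgeR's quasi-likelihood test. Fold changes are KO over control on the log2 scale with their standard error. The targeted genes were both lower in KO libraries. Cnot8 was at 197, 163, 157 and 154 CPM in the controls and 33.1, 35.5, 35.9 and 36.1 CPM in the KO libraries, with a log2 fold change of −2.25 ± 0.12 (edgeR adjusted p = 8.20e-08). For Cnot7 the levels were 1048, 900.0, 898 and 886 CPM and 749, 788, 622 and 717 CPM, with a log2 fold change of −0.38 ± 0.11 (edgeR adjusted p = 0.0105), and how much of the Cnot7 mRNA lies outside the deleted exons was not examined. The summed level of 8 oocyte markers was 17050 to 19930 CPM in the controls and 14330 to 16750 CPM in KO libraries. The sum of 12 granulosa and cumulus markers was 133 to 175 CPM in the controls and 217 to 275 CPM in KO libraries. Of the 11 tested, 4 were upregulated, against 23.8% of all genes tested. Nr5a2 (means of 56.6 and 122 CPM) and Kitl (16.0 and 43.4 CPM) had the largest rises in CPM among the 12. The other upregulated markers were Inha and Fshr. Inha had means of 6.86 and 25.9 CPM (log2 fold change 1.91 ± 0.48), with overlapping groups. Fshr had means of 1.29 and 3.87 CPM (log2 fold change 1.56 ± 0.29), without overlap. Cyp19a1, the aromatase and the most abundant of them in the controls, moved the other way, from 58.4 ± 8.01 to 31.3 ± 6.02 CPM (log2 fold change −0.90 ± 0.16, edgeR adjusted p = 5.07e-04), while the defining marker Foxl2 had at most 1 count in any library and Amh, at 0.77 CPM in the controls and 0.34 CPM in KO libraries, did not pass the test. The sum of 5 neuron markers was 67.9 to 79.1 CPM in the controls and 101 to 112 CPM in KO libraries. This rise lay mainly in Map2, with means of 38.1 and 66.2 CPM, while Syt1 was at 35.2 and 37.4 CPM. Rbfox3 and Snap25 averaged under 1 CPM in both groups, and Stmn2 had 3 counts or fewer in every library. Sums of 6 blood and immune markers were at most 1.83 CPM in the controls and from 3.04 to 5.12 CPM in KO libraries. Among them Cd68 was upregulated (1.20 ± 0.437 to 3.24 ± 0.579 CPM, log2 fold change 1.46 ± 0.30). Sums of 6 stroma and theca markers were 1.77 to 4.15 and 2.28 to 3.79 CPM, and those of 3 endothelial markers were 90.1 to 114 and 74.2 to 88.5 CPM. The endothelial sum lay mainly in Pecam1, with means of 96.2 and 82.2 CPM. Kdr was downregulated (4.19 ± 1.26 to 0.759 ± 0.189 CPM, log2 fold change −2.46 ± 0.30), and Cdh5 had 3 counts or fewer in every library. In libraries of whole oocytes, fewer cells of a type and less RNA per cell cannot be told apart.

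Of the 60 genes, 54 passed the filter, 38 kinesin rows and 16 tubulins. Kif12, Kif2b, Kif6, Tuba8, Tubb1 and Tubb4a did not, with at most 5 counts in any library, and Kif12 and Tubb1 had 0 counts in all 8. Upregulated DEGs were 4 of the 54, against 23.8% of all genes tested, and downregulated DEGs were 3 of the 54, against 6.56% of all genes tested. The upregulated genes were Tuba1a, Kif21a, Kif4-ps and Kif21b, and the downregulated genes were Tuba3b, Tubb6 and Kif24. Without the fold threshold, 9 of the 54 were higher and 26 were lower in KO oocytes, against 31.2% and 24.1% of all genes tested. The groups did not overlap in 7 members with KO higher (27.0% of all genes tested) and in 25 with KO lower (21.4% of all genes tested), where 48.4% of all genes tested did not overlap in either direction. The median log2 fold change was −0.35 over the 54 members and 0.12 over all genes tested. Members were mostly abundant, and abundant genes as a whole lay lower: over the 8726 genes that averaged 10 CPM or more, the median was −0.25, with 1827 higher and 3658 lower, and over the 44 members at that level it was −0.42, with 8 higher and 25 lower. The scaling mattered for this split. When libraries were scaled by their size only, 11 of the 54 members were higher and 11 lower, against 40.2% and 13.6% of all genes tested, and their median was −0.06 beside 0.40 for all genes tested, so changes smaller than about 2-fold are read relative to the other genes. The counts of each gene list at the false discovery rate alone are likewise set against 31.2% higher and 24.1% lower over all genes tested. With library size only these shares are 40.2% and 13.6%. For mostly abundant lists, such as spindle kinesins and spindle assembly factors, the 1827 higher and 3658 lower of 8726 are the closer reference. DEG counts of a list are set against 23.8% up and 6.56% down.

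**Figure D1:**
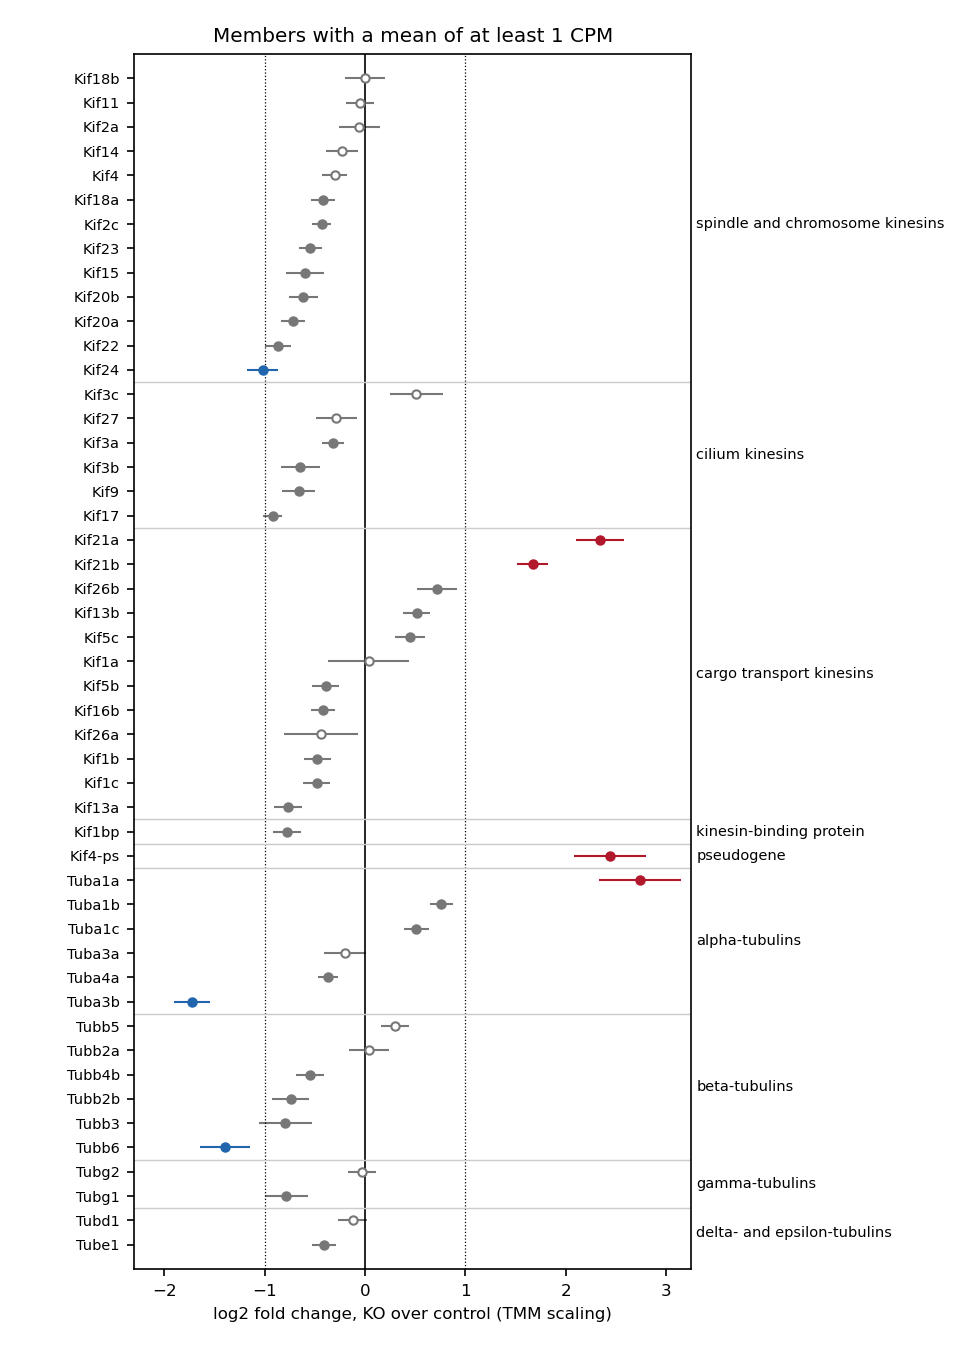
Log2 fold change of each tested kinesin and tubulin row averaging 1 CPM or more, KO over control on the TMM scale, with its standard error (bars), arranged by role. Red and blue points are up- and downregulated DEGs, grey points are not DEGs, and open points have an adjusted p above 0.05. Most grey points lie left of 0, and scaling by library size only would move the median of all genes to the right by 0.29; the red points are Kif21a, Kif21b, Kif4-ps and Tuba1a.

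Among α-tubulins, Tuba1a, Tuba1b and Tuba1c were higher in KO oocytes and Tuba3b and Tuba4a were lower, each without overlap between the groups, and Tuba3a did not pass the test. The 3 genes that were higher form a cluster on chromosome 15, and their mRNAs are used in most dividing and differentiating cells. Tuba1a (ENSMUSG00000072235, chr15:98949837-98953703, minus strand), the α-tubulin best known from developing neurons, had 9.46, 2.07, 2.18 and 3.35 CPM in the control libraries and 29.4, 25.7, 37.5 and 26.8 CPM in the KO libraries. Every KO library was above every control library, and control replicate 1 was far above the other controls. The means were 4.26 ± 3.51 and 29.9 ± 5.36 CPM (SD, n = 4), a 6.68-fold increase with a log2 fold change of 2.74 ± 0.41 (edgeR adjusted p = 1.45e-04), which was the largest rise among the members. Without control replicate 1 the log2 fold change was 3.57 ± 0.22, so the size of this increase rests partly on that library. Tuba1b (chr15:98931425-98934565) had 64.7, 77.8, 78.2 and 75.2 CPM in the controls and 128, 125, 141 and 107 CPM in KO libraries. Its log2 fold change was 0.76 ± 0.12 (edgeR adjusted p = 1.90e-04), short of 2-fold. Tuba1c (chr15:99029891-99038110) rose from 162 ± 14.8 to 229.8 ± 35.7 CPM, with a log2 fold change of 0.51 ± 0.13 (edgeR adjusted p = 0.00454). The coding sequences of Tuba1a and Tuba1b are 98.3% identical and those of Tuba1b and Tuba1c 97.94%, and since the counting method is not given in the sources used here, how reads shared between them were divided is uncertain. Granulosa and neuron marker sums were also higher in the KO libraries, and their part in the level of Tuba1a was not tested.

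Tuba3a and Tuba3b, a pair of near-identical genes on chromosome 6 known from testis, parted from each other. Tuba3b (ENSMUSG00000067338, chr6:145615757-145621479, plus strand) had 31.5, 49.1, 41.1 and 40.3 CPM in control libraries and 10.7, 9.55, 14.1 and 14.4 CPM in KO libraries. No KO library reached the lowest control, and the KO mean was 30.1% of the control mean, with a log2 fold change of −1.72 ± 0.18 (edgeR adjusted p = 1.04e-05), the largest fall among the members. For Tuba3a (chr6:125278274-125286042) the values were 81.6, 153, 113 and 112 CPM in the controls and 96.2, 88.2, 139 and 76.4 CPM in KO libraries. These ranges overlapped, and its log2 fold change was −0.20 ± 0.21 (edgeR adjusted p = 0.428). Counts of Tuba3a were 2.59, 3.12, 2.75 and 2.79 times those of Tuba3b in the control libraries and 8.95, 9.23, 9.92 and 5.32 times in the KO libraries, a ratio that does not depend on the scaling of libraries. Reads may be divided between the pair in a way that the counts do not show. Tuba4a (chr1:75214228-75219865), an α-tubulin whose last codon is not one for tyrosine, had 411, 470.4, 415 and 415 CPM in the controls and 332, 316, 371 and 304 CPM in KO libraries. It was lower in every KO library, with a log2 fold change of −0.37 ± 0.10 (edgeR adjusted p = 0.00839). This call was lost with library size only and with TMM factors taken from genes of at least 10 CPM.

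Of the 6 β-tubulins tested, 4 passed the edgeR test as lower in KO oocytes (Tubb6, Tubb3, Tubb2b and Tubb4b) and 2 did not pass the test (Tubb2a and Tubb5), and with library size only or TMM factors from abundant genes Tubb6 alone was still called lower and Tubb5 was called higher. Tubb4b (chr2:25222160-25224702) was the most abundant member, with 1247, 1821, 1570.2 and 1586 CPM in the controls and 1078, 1046, 1246 and 879.6 CPM in KO libraries. The highest KO library was just under the lowest control library, control replicate 1, and the log2 fold change was −0.55 ± 0.14 (edgeR adjusted p = 0.00464). Tubb6 (ENSMUSG00000001473), a β-tubulin whose product makes microtubules less stable, had 217, 473, 420.1 and 416 CPM in the controls and 157, 141, 192 and 90.3 CPM in KO libraries. Control replicate 1 and KO replicate 4 were the lowest of their groups, and the groups did not overlap. Its mean fell from 381 ± 113 to 145 ± 42.3 CPM, with a log2 fold change of −1.40 ± 0.25 (edgeR adjusted p = 5.34e-04).

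Tubb2a and Tubb2b, neighbours on chromosome 13 with 96.49% identical coding sequences, also parted from each other. Tubb2b (chr13:34126748-34130466) had 282, 431, 427 and 449.8 CPM in the controls and 264, 243, 281 and 162 CPM in KO libraries. KO libraries were all lower, with a log2 fold change of −0.74 ± 0.18 (edgeR adjusted p = 0.0045). Tubb2a (chr13:34074274-34078007) had 332, 520.1, 495 and 534 CPM in the controls and 519, 424, 657 and 336 CPM in KO libraries. The groups overlapped, and its log2 fold change was 0.04 ± 0.20 (edgeR adjusted p = 0.872). Per kilobase, Tubb2a was 1.59, 1.64, 1.57 and 1.61 times Tubb2b in the controls and 2.66, 2.37, 3.17 and 2.82 times in the KO libraries, with no overlap. Tubb3, the isotype used as a neuron marker, had 191, 482, 409 and 391 CPM in the controls and 209.8, 204, 298 and 137 CPM in KO libraries. Control replicate 1 overlapped the KO libraries, and the log2 fold change of −0.80 ± 0.27 (edgeR adjusted p = 0.0231) was no longer past the threshold when control replicate 2, 3 or 4 or KO replicate 1, 2 or 4 was left out, with adjusted p from 0.0519 to 0.0749. Without control replicate 1 it was a downregulated DEG, with a log2 fold change of −1.01 ± 0.19 (edgeR adjusted p = 8.24e-04). Tubb5 had 150.2, 199, 174 and 156 CPM in the controls and 195, 201, 261 and 177 CPM in KO libraries, with a log2 fold change of 0.30 ± 0.14 (edgeR adjusted p = 0.0877).

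**Figure D2:**
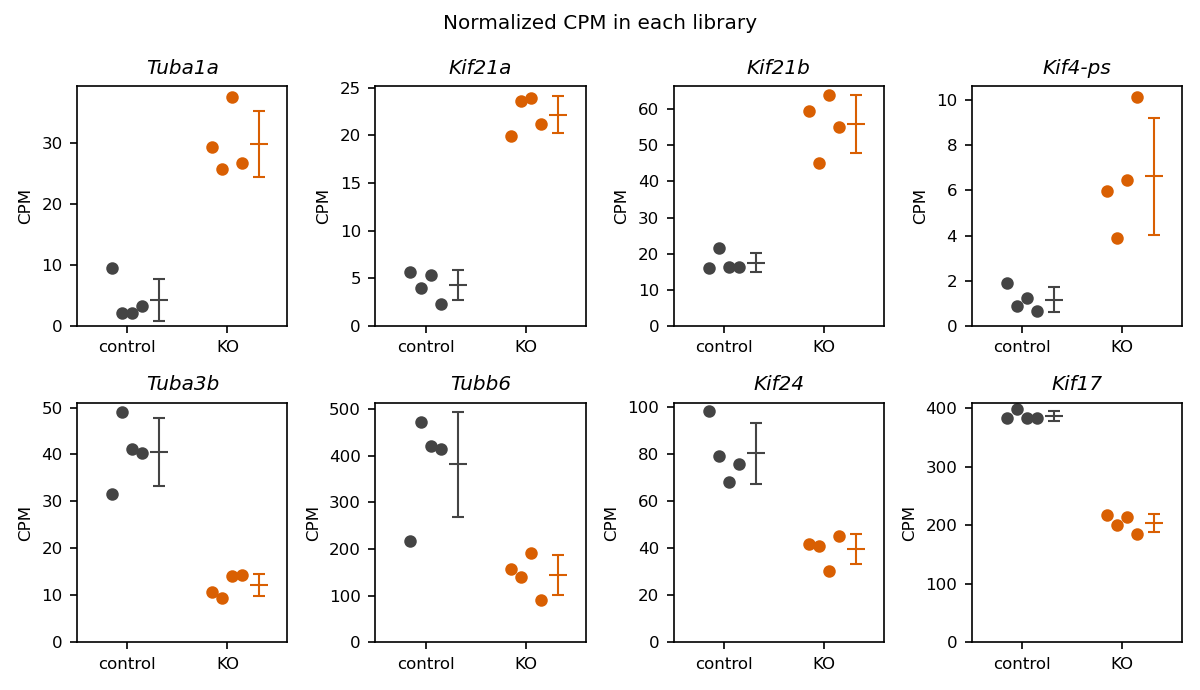
Normalized CPM in each control (dark) and KO (orange) library for 8 genes, with the mean and SD beside the points (n = 4). In the top row (Tuba1a, Kif21a, Kif21b and Kif4-ps) every KO library is above every control library, and in the bottom row (Tuba3b, Tubb6, Kif24 and Kif17) every KO library is below; every axis starts at 0.

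The makeup of the tubulin mRNA pool was then described as each isotype's share of the summed RPKM (CPM per kilobase of the longest annotated transcript) of its class in a library, which does not depend on how libraries are scaled. Tuba4a made up 43.9, 38.96, 38.6 and 39.4% of α-tubulin RPKM in control and 30.2, 30.02, 27.5 and 31.2% in KO libraries. Tuba1c took 21.7% ± 1.45 of the pool in control and 29.4% ± 0.550 in KO libraries (SD, n = 4), and Tuba1b took 11.3% ± 0.592 and 18.3% ± 1.03. The shares of Tuba1b and Tuba1c were higher in every KO library, and Tuba4a and Tuba1c held nearly equal shares there. Tuba1a, at 0.670% ± 0.622 in control and 4.19% ± 0.245 in KO libraries, stayed a minor isotype, and Tuba3b went from 6.03% ± 0.468 to 1.76% ± 0.410. The summed α-tubulin RPKM overlapped between the groups, at 376 ± 39.1 in control and 394 ± 56.9 in KO libraries.

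Among β-tubulins, Tubb4b kept about the same share, 50.96% ± 3.31 in control and 49.8% ± 3.15 in KO libraries. Tubb2a made up 14.7, 14.3, 15.3 and 16.3% in control and 23.1, 20.4, 24.2 and 20.4% in KO libraries. Its share, like that of Tubb5 (3.38% ± 0.489 and 5.87% ± 0.502), was higher in every KO library. Tubb6 went from 11.1% ± 1.49 to 6.02% ± 0.683 and Tubb2b from 9.46% ± 0.608 to 8.04% ± 0.720, both without overlap, whereas the shares of Tubb3 overlapped. The summed β-tubulin RPKM was 1926 ± 370 in control and 1349 ± 272 in KO libraries (SD, n = 4). Control replicate 1, at 1399, fell among the KO libraries on this sum.

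**Figure D3:**
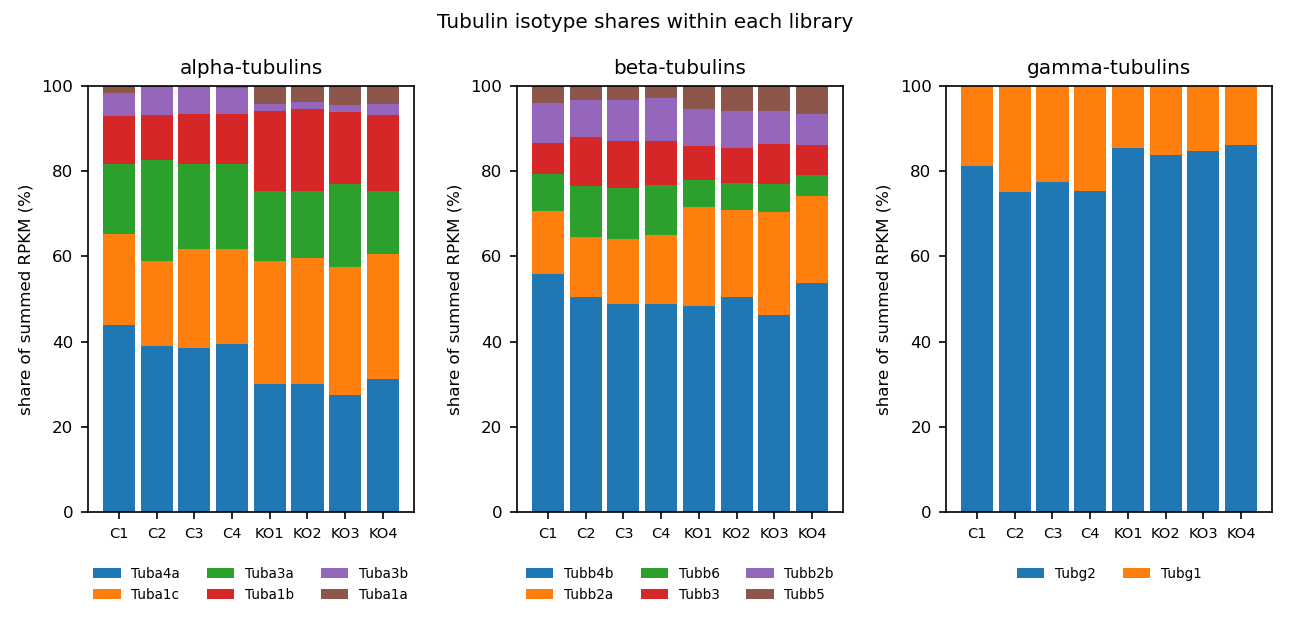
Share of the summed RPKM (%) held by each tubulin gene within its class in the 4 control (C1 to C4) and 4 KO (KO1 to KO4) libraries, for α-, β- and γ-tubulins. Tuba1b and Tuba1c take a larger share and Tuba4a a smaller one in all KO libraries, Tubb2a takes a larger and Tubb6 and Tubb2b a smaller share, and Tubg2 takes a larger and Tubg1 a smaller one.

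γ-Tubulin nucleates microtubules from the γ-tubulin ring complex. Tubg1, the widely used copy, had 11.6, 20.9, 15.4 and 17.99 CPM in the controls and 9.01, 10.4, 11.9 and 6.95 CPM in KO libraries. Control replicate 1 was below the highest KO library, so the groups overlapped, and the log2 fold change was −0.78 ± 0.22 (edgeR adjusted p = 0.00851). This call was lost with library size only and with TMM factors from abundant genes. Tubg2, the copy known from brain and early embryos, had 48.9, 61.3, 51.4 and 53.2 CPM in the controls and 51.2, 52.2, 64.9 and 42.4 CPM in KO libraries, with a log2 fold change of −0.03 ± 0.14 (edgeR adjusted p = 0.873). As a share of γ-tubulin RPKM, Tubg1 was 18.8, 24.9, 22.5 and 24.8% in control and 14.6, 16.2, 15.2 and 13.8% in KO libraries. Of 9 genes of the γ-tubulin ring complex, 2 were higher and 5 lower at the false discovery rate alone, where all genes tested had 31.2% and 24.1%. Tubgcp6 was upregulated (1.75 ± 0.784 to 4.50 ± 0.976 CPM, log2 fold change 1.37 ± 0.32) and Tubgcp2, a core subunit, was downregulated (63.99 ± 4.57 to 31.4 ± 2.85 CPM, log2 fold change −1.03 ± 0.12). Augmin, which brings the ring complex to existing spindle microtubules, had 8 subunits tested, 2 higher and 4 lower at the false discovery rate alone, with Haus2 upregulated (4.12 ± 1.08 to 17.3 ± 1.59 CPM, log2 fold change 2.05 ± 0.20) and Haus1 downregulated (33.5 ± 8.17 to 13.7 ± 2.32 CPM, log2 fold change −1.29 ± 0.19). ε-Tubulin mRNA (Tube1) was 35.3, 31.2, 34.8 and 30.3 CPM in the controls and 22.8, 24.3, 25.3 and 26.3 CPM in KO libraries. It was lower in every KO library, with a log2 fold change of −0.41 ± 0.12 (edgeR adjusted p = 0.0116). The call of Tube1 was also lost with library size only and with TMM factors from abundant genes. δ-Tubulin mRNA (Tubd1) was 30.1 ± 4.70 CPM in the controls and 27.7 ± 2.77 CPM in KO libraries, with overlapping groups and a log2 fold change of −0.12 ± 0.14 (edgeR adjusted p = 0.484).

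Spindle and chromosome kinesins held most of the abundant motors of the oocyte. Leaving out the pseudogene row Kif4-ps, 13 were tested, of which 0 were higher and 8 lower at the false discovery rate alone in the edgeR fit (31.2% and 24.1% of all genes tested), and 1 was a downregulated DEG (Kif24). At an unadjusted p under 0.05 as well 0 were higher and 9 lower, and edgeR's exact test and DESeq2 gave the same counts. In 9 of the 13 every KO library was below every control library, against 21.4% of all genes tested. Of the 8726 genes averaging 10 CPM or more, 3658 were lower at the false discovery rate alone. In 3279 of the 8726 every KO library was below every control library. The median log2 fold change of the 13 was −0.43, with a range from −1.02 to −0.004. With library size only 5 of the 13 were lower (13.6% of all genes tested), as the calls of Kif2c, Kif15 and Kif18a were lost. With TMM factors from abundant genes 6 were lower (14.9% of all genes tested), as the calls of Kif15 and Kif18a were lost. The signs of Kif2a, Kif11, Kif14 and Kif18b turned under 1 or more alternatives. Kif24, a kinesin-13 relative at centrioles that takes microtubules apart and holds back cilium formation, had 98.6, 79.3, 68.02 and 75.8 CPM in the controls and 42.01, 41.02, 30.5 and 45.3 CPM in KO libraries. All KO libraries were lower, with means of 80.5 ± 13.02 and 39.7 ± 6.43 CPM and a log2 fold change of −1.02 ± 0.15 (edgeR adjusted p = 1.53e-04). The fold was at the threshold, and Kif24 was no DEG in 8 of 18 alternatives, among them without control replicate 1 (−0.91 ± 0.14) and without KO replicate 3 (−0.88 ± 0.12), while its adjusted p passed in all.

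Several motors of the spindle midzone and of cytokinesis were among those that were lower. Kif23, a subunit of centralspindlin, had 755, 608, 577 and 579.8 CPM in the controls and 423, 454, 394 and 453 CPM in KO libraries. No KO library reached the controls, and the log2 fold change was −0.55 ± 0.11 (edgeR adjusted p = 0.00147). Kif20a, which carries the chromosomal passenger complex to the midzone, went from 240.2 ± 32.9 to 146 ± 13.2 CPM, with a log2 fold change of −0.72 ± 0.12 (edgeR adjusted p = 3.20e-04). Kif20b, a related motor of cytokinesis, had 367, 240.2, 252 and 259 CPM in the controls and 178, 193, 158 and 201 CPM in KO libraries. Control replicate 1 was well above the other controls, and the log2 fold change was −0.62 ± 0.14 (edgeR adjusted p = 0.00316). Kif14, which works with citron kinase in cytokinesis, had overlapping groups of 303 ± 65.9 and 259 ± 44.05 CPM and a log2 fold change of −0.23 ± 0.16 (edgeR adjusted p = 0.239), which reached the threshold without KO replicate 4 (−0.33 ± 0.13, adjusted p = 0.0497). Kif4, a chromokinesin that also works at the midzone, had 784, 596, 595 and 569 CPM in the controls and 533, 558, 445 and 529 CPM in KO libraries. Its groups did not overlap (exact permutation p = 0.0286, two-sided, the smallest that 4 against 4 libraries allow), yet the edgeR test missed the threshold, with a log2 fold change of −0.30 ± 0.12 (adjusted p = 0.0566).

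Among the motors that act on chromosomes and on spindle length, Kif22 (Kid), a chromokinesin that pushes chromosome arms toward the spindle equator, was lower in KO oocytes. It had 315, 449.9, 457 and 409 CPM in the controls and 233, 226, 245 and 189.8 CPM in KO libraries. The groups did not overlap, and the log2 fold change was −0.87 ± 0.13 (edgeR adjusted p = 1.75e-04). Kif18a, which limits the length of kinetochore microtubules, had 221, 167, 202 and 179.9 CPM in the controls and 146, 152, 123 and 155 CPM in KO libraries, with a log2 fold change of −0.42 ± 0.12 (edgeR adjusted p = 0.011). Kif2c (MCAK), which removes tubulin from microtubule ends at centromeres, had 264, 233, 229.7 and 226 CPM in the controls and 181, 171, 174 and 179.9 CPM in KO libraries. Both motors were lower in every KO library, and the log2 fold change of Kif2c was −0.43 ± 0.10 (edgeR adjusted p = 0.00228).

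The bipolar motor Kif11 (Eg5), which slides spindle poles apart, did not pass the test. Its values were 195, 141, 157 and 130.4 CPM in the controls and 144, 148, 132 and 176 CPM in KO libraries, which overlapped, and its log2 fold change was −0.05 ± 0.14 (edgeR adjusted p = 0.757). Kif15, which can share the work of Kif11, was a rare mRNA, at 9.57, 7.25, 8.84 and 6.70 CPM in the controls and 5.86, 6.31, 4.56 and 4.73 CPM in KO libraries. Each KO library was lower, and its log2 fold change was −0.60 ± 0.19 (edgeR adjusted p = 0.0182). Kif2a, a depolymerase of spindle poles, had 61.4, 40.4, 36.6 and 40.4 CPM in the controls and 36.7, 39.2, 35.6 and 60.1 CPM in KO libraries. Control replicate 1 and KO replicate 4 were each alone at the top of their group, and the log2 fold change was −0.06 ± 0.20 (edgeR adjusted p = 0.819). Kif18b, which acts on astral microtubules, was 19.6 ± 3.08 CPM in the controls and 19.5 ± 5.34 CPM in KO libraries, with an adjusted p of 0.986 in the edgeR test. Cenpe, a kinetochore kinesin whose symbol lies outside the naming rule, was downregulated from 552 ± 98.1 to 253 ± 32.3 CPM (log2 fold change −1.13 ± 0.14, edgeR adjusted p = 3.61e-05). The kinesin-14 motor Kifc1, which focuses spindle poles, fell from 146 ± 45.1 to 64.5 ± 17.1 CPM (log2 fold change −1.18 ± 0.25, edgeR adjusted p = 0.00157), with overlapping groups. Of the 4 kinesin-14 genes tested, Kifc2 was upregulated, at 0.179 CPM in the controls and 1.62 CPM in KO libraries.

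Kinesins of cilia and of intraflagellar transport had 8 genes tested, with 0 DEGs in the edgeR fit, by edgeR's exact test and by DESeq2. At the false discovery rate alone as at an unadjusted p under 0.05, 0 were higher and 4 lower in each of these tests, while 1 was higher and 2 lower with library size only. Kif17, the motor of this group with by far the most mRNA, is known from dendrites, cilia and spermatids. It had 382, 399, 382 and 383 CPM in the controls and 217, 199.8, 215 and 184 CPM in KO libraries. The libraries of each group were close together and the groups far apart, and the means were 386 ± 8.14 and 204 ± 15.1 CPM, with a log2 fold change of −0.92 ± 0.10 (edgeR adjusted p = 9.43e-06), just short of 2-fold. The other genes that were lower were Kif3a, Kif3b and Kif9, named after their values were seen, with log2 fold changes of −0.32, −0.65 and −0.66. Kif3a and Kif3b encode the motor subunits of heterotrimeric kinesin-2, and Kifap3, which encodes the third subunit, was upregulated from 3.33 ± 0.879 to 10.1 ± 0.699 CPM (log2 fold change 1.58 ± 0.21, edgeR adjusted p = 5.12e-05). Among 9 light chains and adaptors of kinesins, Klc3 and Mapk8ip1 were the other 2 DEGs, both upregulated and both averaging under 3 CPM in either group. With Kifap3, 3 of the 9 were upregulated, against 23.8% of all genes tested.

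Among the Kif motor genes, the largest rises were in the cargo transport group, where 13 were tested and 5 were higher and 5 lower at the false discovery rate alone. Kif21a (ENSMUSG00000022629, chr15:90933276-91049948, minus strand), a kinesin-4 family motor that limits microtubule growth at the cell edge, had 5.69, 3.95, 5.31 and 2.26 CPM in the controls and 19.98, 23.6, 23.9 and 21.1 CPM in KO libraries. Its means were 4.30 ± 1.55 and 22.2 ± 1.92 CPM, a 5.08-fold increase with a log2 fold change of 2.34 ± 0.24 (edgeR adjusted p = 8.62e-06). Kif21b (ENSMUSG00000041642, chr1:136131389-136177998, plus strand), its close relative known from neurons and immune cells, had 15.96, 21.6, 16.2 and 16.4 CPM in the controls and 59.6, 45.03, 63.8 and 55.1 CPM in KO libraries. All KO libraries were at more than 2 times the highest control, and the log2 fold change was 1.67 ± 0.15 (edgeR adjusted p = 3.90e-06). Both paralogs thus rose. The sums of granulosa and neuron markers were also higher in the KO libraries, and their part in these increases was not tested. The other 11 cargo motors held 0 DEGs in the edgeR fit, by edgeR's exact test and by DESeq2, and 0 at an unadjusted p under 0.05 with 2-fold. At the false discovery rate alone 3 of them were higher and 5 lower (3 and 1 with library size only), with log2 fold changes from −0.77 to 1.04. Kif1bp, the kinesin-binding protein, was lower in every KO library (42.9 ± 6.27 and 25.04 ± 2.40 CPM, log2 fold change −0.78 ± 0.14, edgeR adjusted p = 5.17e-04), and it is named here after its values were seen.

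Kif4-ps (ENSMUSG00000092054, chr12:101145614-101149758, plus strand) is annotated as a transcribed processed pseudogene, a copy of the Kif4 mRNA set into chromosome 12. It had 1.90, 0.888, 1.22 and 0.655 CPM in the controls and 5.97, 3.90, 6.47 and 10.1 CPM in KO libraries. Each KO library was above the controls, with a log2 fold change of 2.44 ± 0.36 (edgeR adjusted p = 1.27e-04), while its parent Kif4 had a log2 fold change of −0.30. Its transcript was 79.37% identical to that of Kif4 over 3689 aligned positions. Counts of Kif4-ps were 0.00178 ± 0.000566 of those of Kif4 in control and 0.0130 ± 0.00516 in KO libraries (SD, n = 4). The other pseudogene row, Kif22-ps, and the antisense row Kif16bos stayed under 1 CPM and did not pass the test.

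Control replicate 1 and KO replicate 4 stood apart from the rest in opposite ways for the 2 families. In control libraries, replicate 1 was the lowest for 11 of the 12 α- and β-tubulins and the highest for 23 of the 33 kinesin rows that averaged 1 CPM or more. In KO libraries, replicate 4 was the lowest for 10 of the 12 and the highest for 17 of the 33. The median length of the longest annotated transcript was 1789 bases for these tubulins and 5593 bases for these kinesin rows. Both libraries were the deepest of their group, with 44092144 and 26784110 counts. With both left out, Tuba1a (3.63 ± 0.22), Kif21a (2.55 ± 0.24), Kif4-ps (2.54 ± 0.32), Kif21b (1.63 ± 0.16), Tuba3b (−1.92 ± 0.16) and Tubb6 (−1.42 ± 0.11) were still DEGs (log2 fold changes), and Kif24 (−0.98 ± 0.13) fell short of 2-fold. Tubb3 then had a log2 fold change of −0.85 ± 0.13 (edgeR adjusted p = 1.18e-04).

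Levels were compared between genes only per kilobase of transcript. Tubb4b led in both groups, at 974 ± 147 RPKM in control and 665 ± 94.1 RPKM in KO libraries (SD, n = 4), more than 2 times the next gene, Tubb2a, at 292 ± 58.2 and 301 ± 85.2 RPKM. Below them in control libraries came Tubb6 (217 ± 64.1 RPKM), Tubb3 (197 ± 66.5 RPKM), Kif23 (185 ± 24.8 RPKM) and Tubb2b (182 ± 35.5 RPKM), neighbours that did not differ beyond their spread. Kif23 was thus at the level of a major tubulin. In KO libraries Tubb6 stood at place 9, with 82.4 ± 24.1 RPKM, and Kif23 at place 3, with 127 ± 8.41 RPKM. Tuba4a led the α-tubulins in control libraries with 151 ± 10.02 RPKM, and in KO libraries it was at 117 ± 10.2 RPKM beside Tuba1c at 116 ± 18.02 RPKM, which was well within their spread. Tuba1b moved from place 17 to place 11 among the members. Kif4 was at place 8 in both groups, with 128 ± 20.02 and 104 ± 9.85 RPKM.

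**Figure D4:**
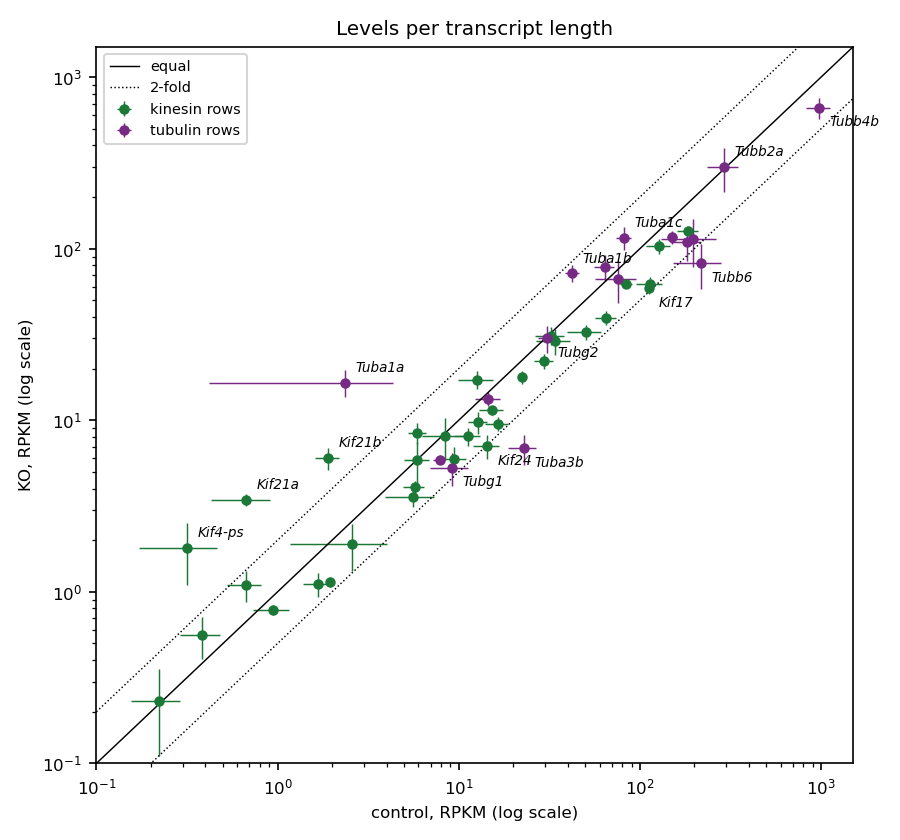
Mean RPKM in control (horizontal, log scale) and KO libraries (vertical, log scale) for kinesin (green) and tubulin (purple) rows, with SD over 4 libraries; the solid line marks equal values and the dotted lines 2-fold. Tubb4b is at the top right and most abundant genes lie just below the line of equal values, while Tuba1a, Kif21a, Kif21b and Kif4-ps lie above the upper 2-fold line and Tuba3b and Tubb6 below the lower one, with Kif24 just below it (14.4 and 7.10 RPKM).

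The enzymes and factors that act on tubulin were examined beside the tubulins themselves. Of 23 tubulin-modifying enzymes tested, 3 were upregulated and 2 downregulated, against 23.8% and 6.56% of all genes tested. At the false discovery rate alone, 4 were higher and 8 lower. Agbl2, a cytosolic carboxypeptidase that trims glutamate from tubulin tails, had 1.36, 0.987, 1.02 and 0.874 CPM in the controls and 20.6, 23.4, 16.8 and 20.98 CPM in KO libraries. This was the largest rise of that list, with a log2 fold change of 4.22 ± 0.20 (edgeR adjusted p = 5.11e-08). Ttl, the ligase that puts the tyrosine back on α-tubulin, rose from 8.62 ± 0.867 to 22.1 ± 6.42 CPM (log2 fold change 1.36 ± 0.20), and Ttll6, the other upregulated gene, averaged under 1 CPM in both groups. Agtpbp1, a deglutamylase, fell from 208 ± 20.3 to 101 ± 13.3 CPM (log2 fold change −1.04 ± 0.12), and Ttll9 fell from 3.11 ± 0.237 to 1.01 ± 0.539 CPM (log2 fold change −1.55 ± 0.33). Of 7 tubulin folding cofactors, 1 was higher and 5 lower at the false discovery rate alone, and Arl2 was downregulated (52.7 ± 16.9 to 24.4 ± 7.86 CPM, log2 fold change −1.11 ± 0.28), with overlapping groups. Cytoplasmic dynein and dynactin, the motor that walks the other way, had 26 genes tested, 4 higher and 14 lower at the false discovery rate alone, with Dync1i1 upregulated (7.48 ± 1.10 to 44.9 ± 6.74 CPM, log2 fold change 2.58 ± 0.16), Dync1li1 upregulated (1.18 ± 0.17) and Dctn5, Dynlt1b and Dynlt1c downregulated (−1.01 ± 0.14, −1.05 ± 0.12 and −1.12 ± 0.17). Of 14 spindle assembly factors, 0 were higher and 9 lower at the false discovery rate alone, and 0 were DEGs, in the edgeR fit, by edgeR's exact test and by DESeq2. At an unadjusted p under 0.05 in the edgeR fit the counts were again 0 and 9, and with library size only 1 was higher and 4 were lower.

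All 3 genes of the autoregulation pathway passed the false discovery rate without reaching 2-fold. Ttc5, the reader of nascent tubulin, had 28.7, 33.5, 35.8 and 34.01 CPM in the controls and 62.3, 59.5, 79.7 and 56.9 CPM in KO libraries. It was higher in every KO library, with a log2 fold change of 0.97 ± 0.14 (edgeR adjusted p = 9.52e-05). Scaper, the adaptor, went from 94.7 ± 14.9 to 67.6 ± 8.42 CPM (log2 fold change −0.49 ± 0.14, edgeR adjusted p = 0.00989), and Cnot11, the CCR4–NOT subunit that the adaptor contacts, from 141 ± 31.2 to 105 ± 4.87 CPM (log2 fold change −0.42 ± 0.14, edgeR adjusted p = 0.0234). The calls of Scaper and Cnot11 were lost with library size only and with TMM factors from abundant genes, and that of Cnot11 also with upper quartile scaling. Ttc5 lay at the fold threshold, with log2 fold changes from 0.87 to 1.25, and reached 2-fold in 8 of 18 alternatives.

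Stored oocyte mRNAs often carry the cytoplasmic polyadenylation element (CPE), at which their poly(A) tails are lengthened during meiosis. The letters TTTTAT were searched on the sense strand of the longest annotated 3′UTR of at least 50 bases (GENCODE vM21). They occurred in 56.2% of the 15167 tested protein-coding genes with such a 3′UTR and in 21 of 35 kinesin rows (60.0%), Kif1bp included. Of the spindle and chromosome kinesins 9 of 13 (69.2%) held them, and of the tubulins 2 of 16 (12.5%). Tubulin 3′UTRs were short, with a median of 195.5 bases against 1603 bases for these kinesin rows and 1273 bases for all. Sites of spindle kinesins, of Kif21a and of the only α-, β- or γ-tubulin with a match, Tubb2b, are shown with up to 12 bases on either side and the element in capitals.
Kif18a: aatgtgctaataTTTTATtacttggtatat
Kif11: actgaaagtcttTTTTATaatccctgtagt
Kif23: cacgttgcccttTTTTATtgtgactttttc
Kif22: tgtaaatacagtTTTTATtccatg
Kif21a: ctgcaaggttaaTTTTATgtaatggtataa
Tubb2b: aagttatatcatTTTTATgatgctgggaat
On GRCm38 the elements lie at chr2:109341711-109341716 (Kif18a, plus strand), chr19:37420519-37420524 (Kif11, plus strand), chr9:61917539-61917544 (Kif23, minus strand), chr7:127027735-127027740 (Kif22, minus strand), chr15:90933408-90933413 (Kif21a, minus strand) and chr13:34126773-34126778 (Tubb2b, minus strand). The element of Kif22 ends 6 bases before the end of its 3′UTR, and those of Tubb2b and Kif18a end 25 and 31 bases before theirs. A match is a description of the letters and not a tested site. The median log2 fold change was −0.42 for the 23 members with the element and −0.31 for the 28 without it, and among all 15167 genes it was 0.10 with and −0.08 without. Kinesin rows with and without the element had medians of −0.42 and −0.47, so both lay below those of all genes.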

How the data were processed

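The 4 CNOT7&8 KO and 4 Zp3-Cre control libraries of GV oocyte RNA were grouped by the genotype in the labels. The authors removed ribosomal RNA and mapped the reads to GRCm38 with STAR (v2.6.1d), run through nf-core/rnaseq. The deposited values are raw counts of reads per gene in each library, neither scaled nor filtered. The counting tool, annotation and strand setting are not given in the sources used here, so near-identical and overlapping genes are uncertain. The labels name a stranded total RNA kit.

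The 19241 genes that reached 0.2 CPM in at least 2 libraries (of 28353 with a count) were compared with edgeR 4.0.16 (TMM scaling, quasi-likelihood test, Benjamini-Hochberg over all genes tested) in R 4.3.3. CPM values use TMM-scaled library sizes, and RPKM divides them by the longest GENCODE vM21 transcript; 98.2% of the gene identifiers were found in that annotation. Standard errors are the absolute log2 fold change over the square root of F. Single genes were also compared by an exact two-sided permutation test over 70 assignments. On simulated data for this comparison with 19241 genes, of which 200 were changed 4-fold, the test recovered 195 with 4 false calls. No smaller change was simulated, and the main comparison had far more DEGs, 4582 upregulated and 1263 downregulated. The simulation therefore gives no accuracy for changes under 2-fold, or for calls that depend on the scaling or on single libraries. In the shallowest library 3 counts made 0.326 CPM.

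The members and the lists were chosen with earlier results of these data known. Named were members that were DEGs and averaged 1 CPM or more, the 10 most abundant, 12 spindle kinesins, all tested tubulins, the targeted and autoregulation genes and, in each other list, up to 4 such DEGs. Dctn5, Ttll6, Mapk8ip1, Kifc2, the markers Foxl2, Amh, Cyp19a1, Pecam1 and Cdh5 and the 5 neuron markers were named after their values were seen. Alternatives were edgeR's exact test, DESeq2 1.42.0, other scalings, filters and thresholds, the replicate number as a block, and leaving out libraries.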

Additional observations from a re-analysis of the deposited data

Results flagged for a closer look

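In 8 of 66 sets of 4 libraries examined (33 named members in each group), 1 library lay far from the other 3 by Dixon's criterion, where chance gives about 3.3, or 1 in 20. Of the 8, 4 were in control replicate 1. Kif4 had 784 CPM there against 569 to 596 CPM in the other controls, Kif20b 367 against 240 to 259 CPM, Kif2a 61.4 against 36.6 to 40.4 CPM, and Tubb2b 282 against 427 to 450 CPM. Control replicate 2 gave 3, in which Kif17 had 399 CPM against 382 to 383 CPM, Kif21b 21.6 against 16.0 to 16.4 CPM, and Tuba4a 470 against 411 to 415 CPM. The last was Kif2a in KO replicate 4, at 60.1 CPM against 35.6 to 39.2 CPM in the other KO libraries. Without control replicate 1 the log2 fold changes (KO over control) were −0.18 for Kif4, −0.46 for Kif20b, −0.88 for Tubb2b and 0.14 for Kif2a, of which Kif20b and Tubb2b passed the false discovery rate of 0.05 both with and without it and Kif4 and Kif2a in neither case.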

How the results depend on the processing

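Of 594 values (33 named members under 18 alternatives), 561 kept their direction and their side of the false discovery rate of 0.05, or were past it in neither fit, while 24 lost and 9 gained the threshold. Signs turned in 42 of the 594, in 8 genes, none of which passed the threshold in the main comparison or where its sign turned (Kif11, Kif14, Kif18b, Kif2a, Tuba3a, Tubb2a, Tubd1 and Tubg2). Upregulated kinesin rows numbered 3 and became 4 with library size only and 6 without the fold threshold. The 1 downregulated kinesin, Kif24, became 0 with library size only, upper quartile scaling, TMM factors from genes of at least 10 CPM, filtering at 1 CPM in 4 libraries, no filter beyond 1 count, and control 1 and KO 4 both left out, ranged from 0 to 1 when single libraries were left out, and became 18 without the fold threshold. The 1 upregulated tubulin became 2 with library size only and with TMM on genes of at least 10 CPM (Tuba1b reached 2-fold) and 3 without the fold threshold, and the 2 downregulated tubulins became 3 without control replicate 1 (Tubb3 reached 2-fold) and 8 without the fold threshold. The scaling moved the median of all genes by 0.29 (library size only), 0.25 (TMM on genes of at least 10 CPM) and 0.10 (upper quartile). The split at the false discovery rate alone was 6 higher and 18 lower kinesin rows (25.0% higher) and 3 and 8 tubulins (27.3%); it was 7 and 9 (43.8%) and 4 and 2 (66.7%) with library size only, and 7 and 10 (41.2%) and 4 and 2 with TMM on genes of at least 10 CPM. Of the single libraries, leaving out control replicate 1 moved Tuba1a most, to a log2 fold change of 3.57.

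Both groups carry replicate numbers 1 to 4, and same-numbered libraries showed little correlation. The correlations of same-numbered deviations from the group means were −0.072, −0.042, 0.11 and −0.121. Control replicate 1 correlated best with KO replicate 4 (0.372). Whether same-numbered libraries were collected or prepared together is not stated, and these correlations cannot decide it. With the replicate number as a block, 3 kinesin rows were up and 1 down and 1 tubulin was up and 2 down, as without it, and the split was 6 higher and 16 lower kinesin rows and 3 and 8 tubulins. The depth of the shallowest library, 8639444 counts, limits statements on rows under 1 CPM, such as Kif22-ps, Kif16bos, Kif7 and Kif5a. The counts cannot show how reads were divided within the Tuba1, Tuba3 and Tubb2 sets.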
